A study of Homo sapiens with 6 samples.

Results

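The CREB and ATF transcription factors described here are 10 genes, CREB1, ATF1, CREM, ATF2, ATF7, CREB5, CREB3, CREB3L1, CREB3L2 and CREB3L4, found by symbol among the 26255 genes of the deposited tables. They were selected on the readout: the family was chosen because CREB5 was among the largest rises in the only contrast of the study, so the values of all 10 are given as a description, without a test. RNA was sequenced from 22RV1 cells, an established line of castration-resistant prostate cancer (CRPC), that had been kept for 24 h in the vehicle DMSO (3 samples) or in 10 nM bruceantin (BCT, 3 samples). Bruceantin is a quassinoid, a plant compound known to block protein synthesis, and in this study it was examined as an inhibitor of androgen receptor signaling. All samples came from 1 cell line grown in serum-containing medium, so the groups differed by BCT alone as far as the labels say.

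CREB and ATF proteins carry a basic leucine zipper and bind as dimers to the cAMP response element (CRE), the palindrome TGACGTCA, or to its half-site TGACG. CREB1, ATF1 and CREM are switched on when protein kinase A (PKA) or other kinases phosphorylate them after a rise in cAMP or calcium, and they then recruit the acetyltransferases CREBBP and EP300. ATF2, ATF7 and CREB5 are controlled by stress kinases and can pair with JUN, and the CREB3 group is held in the membrane of the endoplasmic reticulum until proteases of the Golgi cut it free. In the prostate, CREB3L4 is known as an androgen-induced gene of luminal cells, and CREB5 has been linked to resistance to anti-androgens.

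CREB5 was nearly silent in DMSO and became the fifth most abundant of the 10 genes in BCT. Expression was measured as FPKM, fragments scaled by transcript length and by sequencing depth, so that levels could be set side by side between genes. CREB5 stood at 0.245, 0.320 and 0.340 FPKM in DMSO replicates 1, 2 and 3 and at 16.65, 22.4 and 22.7 FPKM in BCT replicates 1, 2 and 3. Every BCT sample lay far above every DMSO sample. The mean level went from 0.302 ± 0.0501 to 20.6 ± 3.38 FPKM (SD, n = 3 each), a ratio of means of 68.1. The log2 fold change on the log2(FPKM + 0.1) scale was 5.68 (limma SE 0.15), rank 5 from the top among the 12729 genes that passed a filter of 1 FPKM on the mean over all samples. With so low a DMSO level this value moved with the pseudocount and was 4.04 with 1 and 6.04 with 0.01. CREB5 passed the filter on the mean only through its BCT samples. In bulk RNA, fewer cells of one kind and less RNA per cell cannot be told apart, here or in the results that follow.

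**Figure D1:**
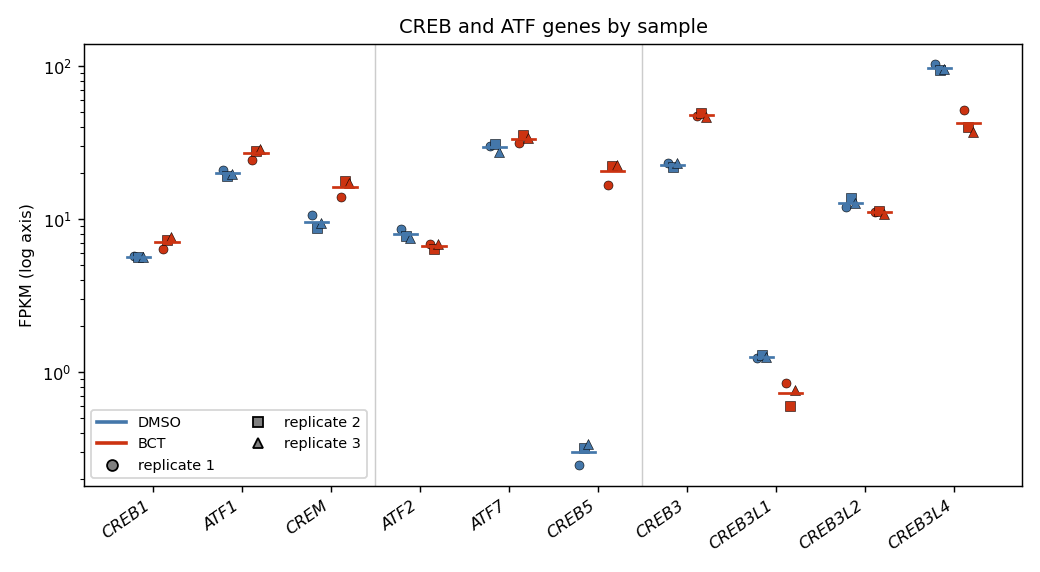
Expression of the 10 CREB and ATF genes in each sample, in FPKM on a log axis; points are samples, short lines are group means of 3 samples, and grey lines part the 3 subfamilies. CREB5 lies between 0.245 and 0.340 FPKM in DMSO and between 16.65 and 22.7 FPKM in BCT, while the other genes change by far less.

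Promoter sequences show where CRE and related letters stand near the starts of these genes. RefSeq windows of 300 bases, 250 before to 50 after a start, were read for 9 of the 10 genes, all but ATF2, in 22 windows, and were placed on hg19 by exact match. The full CRE was found in 2 of the 9 genes, CREM and CREB3L2, and in 2.25% of the 27305 genes with a window. The half-site TGACG, read on both strands and contained in the full CRE, was found in CREM, ATF7, CREB3 and CREB3L2, 4 of 9 genes, and in 28.4% of all genes. The AP-1 letters TGANTCA, bound by JUN and FOS dimers, were found in CREB5 alone of the 9 and in 9.37% of all genes. The letters TGACGTGG, a core recognized by factors of the unfolded protein response, were found in none of the 9 and in 0.927% of all genes. Shares by gene depend on the number of windows per gene, and the 9 genes had 22. By window, 3 of the 22 held the full CRE, 6 the half-site and 1 the AP-1 letters. Of all 35116 windows 1.85%, 24.55% and 7.71% did. A match is a description of the letters and not a measured binding site. The sequences below are the full CREs, the AP-1 match and the half-site of CREB3, shown because they are the longer matches of the family and the match of a called member. The shorter half-sites of CREM near its first starts and of ATF7 are not shown, and the window of CREB3L4 held none of these letters. They are given with the motif in capitals, its distance in bases from the start of transcription (negative before it), and each written 5′ to 3′ on the strand of its gene.
CREM, chr10:35484769-35484798 (+), intronic in GENCODE at -50 from an internal RefSeq start: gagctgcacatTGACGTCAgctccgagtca
CREB3L2, chr7:137686993-137687022 (-), at -179 from the start and upstream of the gene: gagttcctcggTGACGTCAcagacactccc
CREB5, chr7:28725695-28725723 (+), at -44 from an internal RefSeq start and within an untranslated exon of another transcript: tgggaaggataTGACTCActcaagctagt
CREB3, chr9:35732558-35732584 (+), half-site read on the other strand, at -94 from the start: ggggtggggtgCGTCActttcgctgcg
The CREM site also lies in an overlapping window, 3 bases after a second internal start. FPKM per gene does not tell which start was in use in either group.

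CREB1, ATF1 and CREM, the classical nuclear effectors of cAMP, were each higher in all 3 BCT samples than in any DMSO sample. Such a lack of overlap was common, found in 85.3% of all 12729 genes tested, with BCT above in 5215 genes. With the deposited scaling none of the 3 was past the call thresholds given below. CREB1, the prototype of the family, stood at 5.73, 5.69 and 5.65 FPKM in DMSO and at 6.41, 7.34 and 7.68 FPKM in BCT. ATF1, its closest partner, stood at 21.05, 19.1 and 19.8 FPKM in DMSO and at 24.4, 28.1 and 29.0 FPKM in BCT. CREM, which gives both activators and the short repressor ICER, stood at 10.6, 8.75 and 9.49 FPKM in DMSO and at 14.0, 17.8 and 17.2 FPKM in BCT. BCT replicate 1 was the nearest to DMSO in all 3 genes. The group means of CREB1 were 5.69 ± 0.0385 and 7.14 ± 0.657 FPKM, a log2 fold change of 0.32 (SE 0.077). Those of ATF1 were 20.0 ± 0.979 and 27.2 ± 2.43 FPKM, a log2 fold change of 0.44 (SE 0.075). Those of CREM were 9.63 ± 0.955 and 16.3 ± 2.03 FPKM, a log2 fold change of 0.75 (SE 0.11). CREM thus stayed under the size of 0.85 used for a call with the deposited scaling, and reached 0.86 without BCT replicate 1. It was also called after rescaling to equal FPKM sums, at 1.52, and to equal sums without the small RNA gene MIR6087, at 1.14. The medians of all genes tested were then 0.72 and 0.34. The 3 genes together summed to 35.3 ± 1.96 FPKM in DMSO and 50.6 ± 5.03 FPKM in BCT, and CREM made up 27.2% ± 1.19 and 32.2% ± 1.12 of these sums.

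ATF2 and ATF7, the stress-responsive partners of JUN and the nearest relatives of CREB5, differed little between the groups, and in opposite directions except after rescaling to equal FPKM sums, with or without the small RNA gene MIR6087, where both were positive. ATF2 stood at 8.61, 7.81 and 7.496 FPKM in DMSO and at 6.85, 6.34 and 6.92 FPKM in BCT. ATF7 stood at 30.1, 30.9 and 27.5 FPKM in DMSO and at 31.5, 35.3 and 33.8 FPKM in BCT. In both genes the groups did not overlap, although by a narrow margin. The means of ATF2 were 7.97 ± 0.575 and 6.70 ± 0.315 FPKM (log2 fold change -0.25, SE 0.072). The means of ATF7 were 29.5 ± 1.77 and 33.5 ± 1.94 FPKM (log2 fold change 0.18, SE 0.066). The make-up of this subfamily therefore turned on CREB5, which was 0.804% ± 0.167 of its summed FPKM in DMSO and 33.7% ± 2.94 in BCT. ATF7 was the most abundant of the 3 in both groups, at 78.1% ± 0.987 and 55.3% ± 1.96 of the sum. Of the exonic bases of ATF7, 16.1% are shared with the read-through gene ATF7-NPFF and 26.8% with an antisense noncoding RNA, and the library kit did not mark strand, so the reads of these genes cannot be told apart.

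The membrane-bound CREB3 group held the 2 other members past the call thresholds, and they lay on opposite sides. CREB3, also called LUMAN and tied to secretory stress, stood at 23.2, 21.8 and 23.3 FPKM in DMSO and at 47.2, 49.65 and 46.4 FPKM in BCT. Its means were 22.8 ± 0.834 and 47.8 ± 1.68 FPKM, a log2 fold change of 1.07 (SE 0.052), with the smallest error of the 9 fitted genes. CREB3L4, the most abundant member in DMSO, stood at 103.4, 94.2 and 96.4 FPKM in DMSO and at 51.8, 39.8 and 36.97 FPKM in BCT. Again BCT replicate 1 lay nearest to DMSO for CREB3L4, and the groups were far apart. Its means were 98.0 ± 4.81 and 42.9 ± 7.88 FPKM, or 43.7% of the DMSO level in BCT, a log2 fold change of -1.21 (SE 0.12).

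The other genes of the CREB3 group were lower in BCT with the scaling as deposited. CREB3L2, a regulator of secretory capacity also known as BBF2H7, stood at 12.1, 13.7 and 12.7 FPKM in DMSO and at 11.1, 11.4 and 10.8 FPKM in BCT. Its means were 12.8 ± 0.812 and 11.1 ± 0.268 FPKM (log2 fold change -0.20, SE 0.062). CREB3L1, known as OASIS and as an activator of collagen genes, stood at 1.23, 1.303 and 1.26 FPKM in DMSO and at 0.85, 0.597 and 0.758 FPKM in BCT. Its mean over the 6 samples, 0.9997 FPKM, fell just under the filter of 1 FPKM, so it was the 1 member of 10 that did not enter the fit. Its means were 1.26 ± 0.0359 and 0.735 ± 0.128 FPKM, and without the filter its log2 fold change was -0.72 (SE 0.15). The 4 genes summed to 134.9 ± 4.59 FPKM in DMSO and 102.4 ± 8.01 FPKM in BCT. Within this sum CREB3L4 went from 72.7% ± 1.09 to 41.6% ± 4.41 and CREB3 from 16.9% ± 0.468 to 46.8% ± 3.70, so that CREB3 came to stand beside CREB3L4.

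Over all 10 genes the summed level was 207.9 ± 7.25 FPKM in DMSO and 213.9 ± 4.23 FPKM in BCT, with overlapping samples. The shares in it of all genes but ATF7 did not overlap between the groups, and those of CREB5, CREB3 and CREB3L4 moved the most. CREB5 went from 0.146% ± 0.0285 to 9.6% ± 1.49 of the sum. CREB3 went from 10.95% ± 0.404 to 22.3% ± 0.413. CREB3L4 went from 47.1% ± 0.784 to 20.1% ± 3.93. In DMSO the order of the levels was CREB3L4, ATF7, CREB3, ATF1, CREB3L2, CREM, ATF2, CREB1, CREB3L1 and CREB5, and none of the 9 pairs of neighbours in that order had overlapping samples. In BCT the order was CREB3, CREB3L4, ATF7, ATF1, CREB5, CREM, CREB3L2, CREB1, ATF2 and CREB3L1, and 3 of the 9 pairs did not differ beyond their spread, CREB3 with CREB3L4, CREB5 with CREM, and CREB1 with ATF2.

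**Figure D2:**
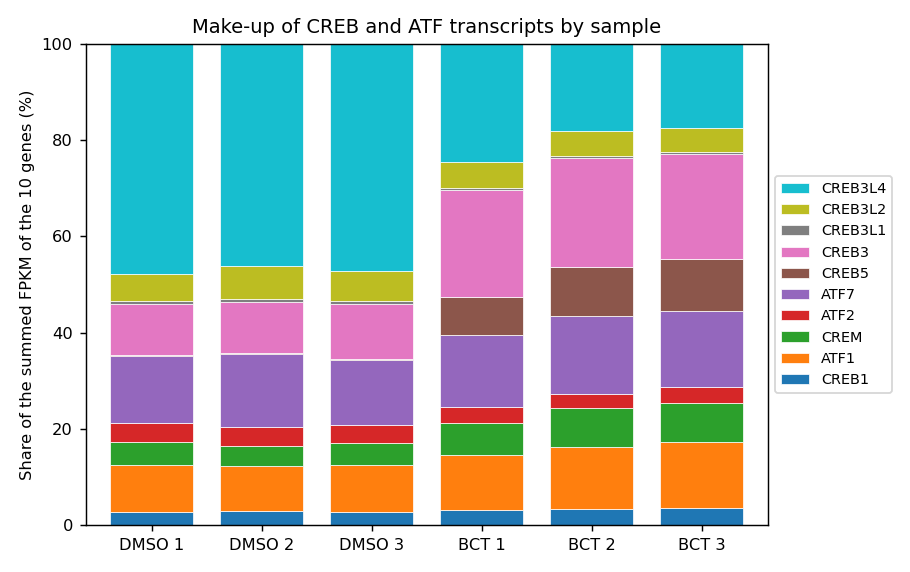
Share of each gene in the summed FPKM of the 10 CREB and ATF genes, in percent, 1 bar per sample. CREB3L4 takes 46.3% to 47.8% of the sum in the DMSO samples and 17.4% to 24.6% in the BCT samples, and CREB5 takes 7.9% to 10.7% in the BCT samples.

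A gene was called when its log2 fold change exceeded 0.85 in size and its adjusted p was below 0.05 (limma with Benjamini-Hochberg adjustment over all genes tested). By this rule 31.6% of the 12729 genes were called, 13.9% as higher and 17.8% as lower in BCT, and the groups did not overlap in 85.3% of them. Of the 9 CREB and ATF genes that passed the filter, 3 were past these thresholds, CREB5 and CREB3 higher and CREB3L4 lower. The groups of all 9 did not overlap, with BCT above in 6 and below in 3. Because the rule that chose the family used this contrast, nothing is read from these counts. The median log2 fold change was 0.32 over the 9 and -0.04 over all genes tested.

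The direction of the smaller differences depended on how the libraries were scaled. The FPKM of a library summed to between 1169649 and 1572321 in DMSO and to between 757534 and 799838 in BCT, and 1 small RNA gene, MIR6087, held 43.5% to 55.3% and 31.7% to 32.5% of these sums. Rescaling to equal sums moved the median over all genes tested to 0.72 on the log2 scale, and rescaling to equal sums without MIR6087 moved it to 0.34. ATF2 was then at 0.51 and 0.14 and CREB3L2 at 0.56 and 0.18, positive where they had been negative. CREB3L4 remained negative at -0.44 and -0.82, under the size for a call. CREB5 was at 6.35 and 6.02, and CREB3 at 1.83 and 1.45. A rescaling moves all genes of a library alike, apart from the pseudocount. Values relative to the median of all genes, with ATF2 at -0.21 and CREB3L4 at -1.16 in both, are therefore nearly fixed by arithmetic. They say nothing on which scaling holds.

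**Figure D3:**
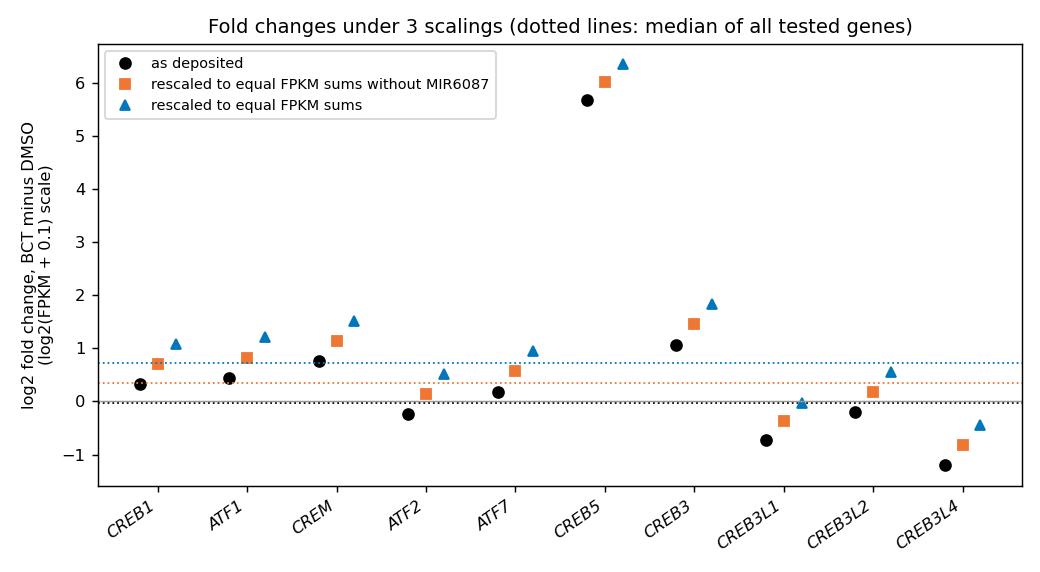
Log2 fold changes (BCT minus DMSO) of the 10 genes from the FPKM as deposited and after rescaling each library to the same FPKM sum with or without MIR6087; dotted lines mark the median of all tested genes under each scaling. ATF2 and CREB3L2 cross zero, CREB3L4 stays below it, and CREB5 stays between 5.68 and 6.35.

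BCT replicate 1 stood nearer to DMSO than the other BCT samples in 7 of the 10 genes, and in 69.1% of all genes tested. Markers of 22RV1 cells were present in all samples, and of 5 markers of other cells PTPRC, PECAM1, COL3A1 and DES were at or below 0.19 FPKM. ALB, the liver marker of this set, was at 388 to 416 FPKM in DMSO and at 57.2 to 68.9 FPKM in BCT. Its part in the results was not tested.

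The genes lie on 7 autosomes (hg19, intervals of the deposited tables). CREB5 spans chr7:28338940-28865511 on the plus strand, and no other annotated exon overlaps its exons. The nearest expressed genes on either side were not called: JAZF1, 57.9 kb away, had a log2 fold change of 0.66 (SE 0.11), and PRR15, 738 kb away, one of -0.60 (SE 0.12). CREB3 was deposited within chr9:35697334-35749225, an interval given alike for GBA2, TLN1 and a pair of microRNA genes, whereas GENCODE places the gene at chr9:35732595-35736996. GBA2 runs antisense and shares 8.2% of the exonic bases of CREB3, and its level was 28.8 ± 0.398 FPKM in DMSO and 28.9 ± 1.46 FPKM in BCT. MSMP, 52 bases beyond that interval, rose by a log2 fold change of 0.95 (SE 0.063, adjusted p = 2.8e-06 by limma). CREB3L4 was deposited within chr1:153931575-153950451, alike for JTB and SLC39A1, and GENCODE places it at chr1:153940010-153946837. SLC39A1 shares 9.65% of the exonic bases of CREB3L4 on the other strand and JTB 3.2%. Their levels were 148.2 ± 4.36 FPKM in DMSO and 120.5 ± 6.85 FPKM in BCT for SLC39A1, and 174.1 ± 3.90 and 122.8 ± 11.8 FPKM for JTB. CREB1 was given the same interval as METTL21A, ATF2 as MIR933, ATF7 as LOC100652999 and CREB3L2 as LOC100130880. How reads were divided among genes given the same interval is not stated in the sources used here, so the FPKM of these 6 members may hold reads of those genes. CRTC2, a coactivator of CREB, lies 443 bases from the interval of CREB3L4.

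The genes whose pattern over the 6 samples was most like that of CREB5 were found by the root mean square difference of log2(FPKM + 0.1), each gene set to its own DMSO mean. They were RRAD at 0.36, NR4A3 at 0.45, C8orf4 at 0.55, EGR4 at 0.59 and STMN4 at 0.72. NR4A3, an orphan nuclear receptor and a classical CRE target, stood at 0.174, 0.224 and 0.151 FPKM in DMSO and at 7.36, 11.2 and 10.3 FPKM in BCT. RRAD, the nearest gene, went from 0.048 ± 0.0282 to 6.27 ± 2.01 FPKM. In both genes, as in CREB5, all DMSO samples were near zero and BCT replicate 1 was the lowest of the BCT samples. The genes were picked for this likeness, so it is no separate result. BCT replicate 1 was also the nearest to DMSO in 87.8% of all called genes.

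Among 13 further CREB and ATF genes, 10 passed the filter, 4 rose and 1 fell, so that 50% were called beside 31.6% of all genes, with a median log2 fold change of 0.49. After rescaling to equal FPKM sums 7 were called higher and none lower, with a median of 1.26. Of all 12729 genes 5614 were then called higher and 668 lower, with a median of 0.72. ATF3, a stress-induced repressor, stood at 24.4, 20.8 and 22.4 FPKM in DMSO and at 174.0, 236.3 and 189.7 FPKM in BCT, a log2 fold change of 3.13 (SE 0.11, adjusted p = 3.3e-07 by limma). ATF4, the effector of the integrated stress response, was already abundant at 527.6 ± 11.9 FPKM in DMSO and rose to 1721 ± 147 FPKM in BCT, a log2 fold change of 1.70 (SE 0.069, adjusted p = 5.0e-07 by limma). The paralogs ATF6 and ATF6B, sensors of the endoplasmic reticulum that are cut by the same proteases as the CREB3 group, were called in opposite directions, and ATF6B lost its call with equal FPKM sums. ATF6 rose from 8.05 ± 0.188 to 16.4 ± 0.986 FPKM (log2 fold change 1.02, SE 0.061), and ATF6B fell from 21.2 ± 0.0488 to 8.29 ± 0.973 FPKM (log2 fold change -1.35, SE 0.085). CREBRF, a partner that promotes loss of CREB3 protein, rose by a log2 fold change of 0.88 (SE 0.11), and its call was lost without BCT replicate 3, at 0.79. The other 5 that were tested were not called.

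JUN and its paralogs, which pair with ATF2, ATF7 and CREB5, all rose and were called, beside 13.9% of all genes tested called higher. JUN stood at 20.6, 19.4 and 20.2 FPKM in DMSO and at 195.5, 262.2 and 230.0 FPKM in BCT, a log2 fold change of 3.50 (SE 0.097, adjusted p = 1.6e-07 by limma). JUNB rose from 24.8 ± 0.604 to 55.0 ± 7.55 FPKM (log2 fold change 1.14, SE 0.09). JUND rose from 101.5 ± 9.93 to 205.8 ± 18.8 FPKM (log2 fold change 1.02, SE 0.089). In DMSO, JUN was thus as abundant as ATF1 and well above CREB5, and in BCT it exceeded each of the 10 genes.

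Of 8 coactivators of CREB and kinases of these coactivators, all tested, 4 rose and none fell, so that 50% were called beside 31.6% of all genes, and the median log2 fold change was 1.07. CREBBP, the CREB-binding protein, stood at 6.72, 7.83 and 7.53 FPKM in DMSO and at 20.9, 23.8 and 24.8 FPKM in BCT, a log2 fold change of 1.64 (SE 0.084, adjusted p = 1.1e-06 by limma). EP300, its paralog, stood at 9.47, 12.3 and 12.2 FPKM in DMSO and at 29.8, 35.3 and 38.3 FPKM in BCT, a log2 fold change of 1.60 (SE 0.12, adjusted p = 5.8e-06 by limma). SIK1 and SIK3, kinases that keep the CRTC coactivators in the cytoplasm, rose by log2 fold changes of 2.64 (SE 0.11) and 1.67 (SE 0.10). CRTC1, CRTC2 and CRTC3 were not called, with log2 fold changes of 0.22, 0.53 and 0.41.

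Genes that make, sense and remove cAMP did not move one way. Of 30 genes 18 passed the filter, 2 rose, 5 fell, and the median log2 fold change was 0.00, so that 38.9% were called beside 31.6% of all genes. After rescaling to equal FPKM sums 7 were called higher and 3 lower with a median of 0.77, and without MIR6087 5 higher and 4 lower with a median of 0.39, beside medians of all genes of 0.72 and 0.34. Of all 12729 genes 5614 were called higher and 668 lower with equal sums, and 3370 and 1208 without MIR6087. PDE3A and PDE4B passed the filter through BCT alone. The phosphodiesterases PDE3A and PDE4B, which degrade cAMP, rose by log2 fold changes of 3.86 (SE 0.20) and 2.51 (SE 0.10), and PDE4A of the same class fell, with a log2 fold change of -1.70 (SE 0.13). PRKAR2B, a regulatory subunit of PKA, fell from 11.5 ± 0.548 to 1.84 ± 0.287 FPKM (log2 fold change -2.58, SE 0.11, adjusted p = 5.8e-07 by limma). ADCY3, an adenylyl cyclase that makes cAMP, fell from 19.6 ± 0.473 to 5.06 ± 1.24 FPKM (log2 fold change -1.96, SE 0.14, adjusted p = 4.2e-06 by limma).

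Of 20 kinases known to phosphorylate CREB or ATF proteins, 18 passed the filter, 5 fell and none rose, so that 27.8% were called beside 31.6% of all genes. Their median log2 fold change was -0.58, and it became 0.17 after rescaling to equal FPKM sums, where 4 were called higher and 1 lower, beside 5614 of all 12729 genes called higher and a median of 0.72. CAMK4, a calcium-dependent kinase of CREB1, stood at 4.68, 4.17 and 3.86 FPKM in DMSO and at 1.11, 0.711 and 0.802 FPKM in BCT (log2 fold change -2.17, SE 0.16). Its BCT mean of 0.875 FPKM was under the filter of 1 FPKM, which it passed through DMSO alone. RPS6KA5, also called MSK1, had a log2 fold change of -1.53 (SE 0.11), and VRK1 one of -1.30 (SE 0.10). The p38 kinases MAPK12 and MAPK11, upstream of ATF2 and ATF7, had log2 fold changes of -1.10 (SE 0.084) and -1.05 (SE 0.10). The other p38 kinases, MAPK13 and MAPK14, were not called, with log2 fold changes of 0.30 (SE 0.062) and -0.07 (SE 0.046).

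Among 30 genes known as CRE targets, 22 passed the filter, 16 rose and 2 fell, beside 13.9% and 17.8% of all genes tested. SIK1 and JUNB are among the 16 and were also counted in the lists above, so the lists are not separate. Of the 16, 5 had a DMSO mean under 1 FPKM and passed the filter through BCT alone, FOSB, NR4A2, NR4A3, GEM and AREG, so the count and the median are partly set by the filter. The median log2 fold change was 1.96 over the 22 and 1.45 over all 30 listed genes. The largest rises were those of NR4A3 (5.09, SE 0.19), FOS (4.34, SE 0.17), GEM (4.34, SE 0.19), EGR1 (4.23, SE 0.16) and AREG (3.93, SE 0.18) on the log2 scale. FOS, the partner of JUN in AP-1, stood at 3.32, 3.71 and 3.26 FPKM in DMSO and at 55.3, 94.4 and 69.2 FPKM in BCT. Many genes of this list, FOS and EGR1 among them, are also known as immediate early genes, which other factors can induce. AREG had no single match on hg19 for its promoter window, and reads of near-identical copies could be shared there. BCL2 and CCNA2 fell, with log2 fold changes of -1.60 (SE 0.098) and -1.46 (SE 0.087). Of the 16 that rose, 13 had promoter windows, and 3 of these held the full CRE, DUSP1, AREG and CGA. A half-site was found in 10 of the 13, and the AP-1 letters in none. Over all 24 listed targets with a window, whether or not they rose, 6 held the full CRE and 20 a half-site. Of all genes with a window 2.25% held the full CRE, 28.4% a half-site and 9.37% the AP-1 letters. The list was made of known CRE targets, so its share of CRE letters is no separate result. The matches in DUSP1, a phosphatase of MAP kinases, and in CGA, the hormone subunit with a tandem CRE, are shown on the strand of each gene beside those of CREM and CREB3L2 above, which have the same 8 letters.
DUSP1, chr5:172198305-172198334 (-), at -125 from the start: ggcagggcgggTGACGTCAccgccccgtca
CGA, chr6:87804948-87804977 (-), at -142 from the start: taagatcaaatTGACGTCAtggtaaaaatt
CGA, chr6:87804930-87804959 (-), at -124 from the start: atggtaaaaatTGACGTCAtggtaattaca
DUSP1 rose from 9.06 ± 1.01 to 58.3 ± 5.08 FPKM (log2 fold change 2.68, SE 0.094, adjusted p = 3.3e-07 by limma), and CGA from 8.91 ± 0.592 to 40.0 ± 2.75 FPKM (log2 fold change 2.15, SE 0.072, adjusted p = 2.8e-07 by limma).

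The proteases that free the CREB3 group, and genes of the secretory pathway known as its targets, showed mixed values. Of 18 genes 17 passed the filter, 2 rose and 3 fell, so that 29.4% were called beside 31.6% of all genes, and the median log2 fold change was 0.24. MBTPS1, the site-1 protease, had a log2 fold change of -0.68 (SE 0.054) that was 0.08 after rescaling to equal FPKM sums, and MBTPS2, the site-2 protease, had one of 0.35 (SE 0.056). Neither was called. COL1A1, a collagen gene activated by CREB3L1, rose from 1.43 ± 0.175 to 5.83 ± 0.69 FPKM (log2 fold change 1.95, SE 0.12), while CREB3L1 itself was lower in BCT. SEC31A, a coat protein of vesicles leaving the endoplasmic reticulum, rose from 19.3 ± 1.57 to 53.6 ± 8.22 FPKM (log2 fold change 1.46, SE 0.11). KDELR1, KDELR2 and KDELR3, which return resident proteins to the endoplasmic reticulum, fell with log2 fold changes of -0.95 (SE 0.052), -0.87 (SE 0.043) and -1.12 (SE 0.085). After rescaling to equal FPKM sums none of the 17 was called lower, beside 668 of all 12729 genes.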

How the data were processed

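RNA-seq libraries (TruSeq RNA v2, not strand-specific) of 22RV1 cells were made from 3 DMSO and 3 BCT samples. Per the study's methods the authors trimmed reads with Trimmomatic, aligned them to hg19 with HISAT2 and quantified them with StringTie. The submitters' processing notes give the version of Trimmomatic as 0.38 and also list CASAVA and HTSeq. The deposited values are FPKM per gene, computed by the authors for each sample. The gene annotation is not given in the sources used here. FPKM holds no counts, so the number of reads behind a value, its depth, is not known and no counting interval is given.

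Genes whose mean over the 6 samples reached 1 FPKM were fitted as log2(FPKM + 0.1), without covariates, by limma (3.58.1, R 4.3.3; moderated variances with a trend), and p-values were adjusted by Benjamini-Hochberg. Groups came from the labels, which do not name separate cultures, so p-values measure the spread between these samples, which may be technical. The procedure was tested on simulated data. Members and lists were chosen with earlier results of these data known. Named in the text are all 10 members, all called genes of lists with at most 5, otherwise the 5 with the largest change. The JUN genes, coactivators and site proteases, the 5 genes most like CREB5, neighbours and genes that overlap members are also named. BCL2, CCNA2, FOSB, NR4A2, DUSP1, CGA, RPS6KA1, MAPK13 and MAPK14 were added after their values were seen. Deposited starts count from 0 and are printed from 1. Exons were read from GENCODE v44lift37. Alternatives covered the pseudocount, filter, scaling, thresholds, variance trend, replicate block and leaving out each sample.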

Additional observations from a re-analysis of the deposited data

How the results depend on the processing

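The 9 fitted CREB and ATF genes gave 153 log2 fold changes over the alternatives, of which 132 moved by less than the spread between replicates and 21 by more. The alternatives of filter, p threshold, variance trend and replicate block cannot change a log2 fold change. Their values are among the 132 by design, so this count is not a measure of stability. Rescaling to equal FPKM sums raised the number of called genes from 4027 to 6282, those of the 10 genes from 3 to 6, of the coactivators and their kinases from 4 to 8 and of the CREB3 proteases and targets from 5 to 9, and it moved the median log2 fold change of the family to 1.08. With equal sums without MIR6087, an alternative added after the data were seen, that median was 0.70. Of all calls 56.2% were lower in BCT with the deposited values, against 10.6% and 26.4% under these rescalings. A filter of 5 FPKM, which tests fewer genes, left 4 called cAMP and PKA genes in place of 7 and 3 called kinases in place of 5. Leaving out 1 sample gave 3834 to 4420 called genes, 3 to 4 called members and a family median between 0.26 and 0.39. RPS6KA1, at -0.85, was not called, but was called without DMSO replicate 1, DMSO replicate 2 or BCT replicate 1.

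Deviations of same-numbered samples from their group means had correlations of 0.116, 0.0328 and 0.0342, and those of differently numbered samples lay between -0.115 and 0.074. With 3 samples per group these values cannot decide whether the numbers pair samples. A fit with a replicate block called 4033 genes, 3 of them members. With FPKM alone, the reads behind low values such as CREB5 in DMSO and CREB3L1 are unknown, and a zero or near-zero level cannot be given a limit. The pseudocount moved CREB5 by more than the spread between replicates.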
